A study of Mus musculus with 14 samples.

Results

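The 8 genes described here are markers of the olfactory bulb, the forebrain structure in which odour signals from the nose are first relayed. They are S100a5, Omp, Eomes, Tbx21, Cdhr1, Doc2g, Th and Trh, 8 of 20492 gene symbols in the tables. They were put together because S100a5 is listed at 0 in control cortex and has a measurable value in TRF2-depleted cortex. They were selected on these measured S100a5 values, 0 and 3.07 FPKM, and the other 7 were added as known markers of the same structure, to ask whether olfactory tissue accompanies it. The cortex values of the members are therefore given as a description, with no test.

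Total RNA was sequenced from cortex and hippocampus of C57BL/6 mice aged 3 months. The labelled groups are control cortex (4 samples), cortex depleted of TRF2, the telomere-binding shelterin protein encoded by Terf2 (3 samples), control hippocampus (3 samples) and TRF2-depleted hippocampus (3 samples). The design text calls the cohorts WT and TRF2-DCX-cre, and by that name Cre recombinase was under Dcx, whose promoter is known to be active in immature neurons. The hippocampus table holds a further condition named DKO, which no label describes; its values are given under that name, and what it is remains unknown here. One value per condition was deposited, in FPKM (sequenced fragments relative to transcript length and library size), with the replicates pooled by the authors. No spread between samples and no read depth can be given for any value below. Of the 14 samples, 1 TRF2-depleted sample carries hippocampus in its title and cortex in its tissue label, and it was left unassigned here. Its description names the cortex table, so it may be part of the TRF2-depleted cortex value on which every cortex ratio below rests.

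Odorants are detected by olfactory sensory neurons of the nasal epithelium, whose axons end in the glomeruli of the bulb. There they contact mitral and tufted neurons, the excitatory output cells, and periglomerular interneurons, some of which make dopamine. S100a5, a calcium-binding protein of the S100 family, and Omp, the olfactory marker protein, are known from mature sensory neurons in the mouse. Eomes and Tbx21 are T-box transcription factors, and together with the cadherin-related protein Cdhr1 and the C2-domain protein Doc2g they mark mitral and tufted neurons. Th, tyrosine hydroxylase, is the rate-limiting enzyme of dopamine synthesis, and Trh encodes the precursor of thyrotropin-releasing hormone.

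Several of these genes have known lives outside the bulb. Eomes marks intermediate progenitors of cortex and dentate gyrus, Eomes and Tbx21 act in T and natural killer cells, Th is high in midbrain dopamine neurons and Trh in the hypothalamus. None of the labelled groups is olfactory bulb, so the specificity of the markers could not be checked against that tissue.

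The members lie on 7 chromosomes, and their start regions were looked up because the genes were high together in 1 condition. RefSeq promoters (GRCm38.p6, the assembly of mm10) were found for 7 of the 8 genes, all but Omp. The 250 bases before the start are printed for 1 gene of each role: S100a5 (chr3:90608272-90608521, plus strand), the mitral gene Cdhr1 (chr14:37098348-37098597, minus strand) and Th (chr7:142899996-142900245, minus strand). Capitals mark a match to a searched motif, and the sequences run 5′ to 3′ on the gene's strand.
S100a5: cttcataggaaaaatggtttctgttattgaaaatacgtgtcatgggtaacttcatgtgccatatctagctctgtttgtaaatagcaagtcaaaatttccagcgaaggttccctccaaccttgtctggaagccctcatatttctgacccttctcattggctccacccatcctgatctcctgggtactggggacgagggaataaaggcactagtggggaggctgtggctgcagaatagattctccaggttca
Cdhr1: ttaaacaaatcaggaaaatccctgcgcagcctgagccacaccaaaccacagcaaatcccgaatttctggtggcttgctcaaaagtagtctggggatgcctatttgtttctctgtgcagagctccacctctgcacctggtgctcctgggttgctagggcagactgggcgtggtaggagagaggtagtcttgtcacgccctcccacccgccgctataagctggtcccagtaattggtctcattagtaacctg
Th: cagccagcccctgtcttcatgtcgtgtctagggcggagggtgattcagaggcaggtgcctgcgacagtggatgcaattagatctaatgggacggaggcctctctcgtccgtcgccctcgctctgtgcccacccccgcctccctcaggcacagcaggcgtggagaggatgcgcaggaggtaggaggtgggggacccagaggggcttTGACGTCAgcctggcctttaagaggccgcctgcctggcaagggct

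Both strands were searched for 3 motifs: TCCCNNGGG, most of the palindrome bound by EBF factors of sensory neurons, the cyclic AMP response element TGACGTCA, and the T-box site TCACACCT. The 1 match among the 7 promoters was the cyclic AMP element of Th, which begins 45 bases before the start. Of 27025 genes with a promoter in the table, 1.77% hold that element, 6.45% the EBF motif and 1.30% the T-box site in the same window. None of the other 6 promoters holds a match, so the printed regions have no searched motif in common.

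All 8 genes had their highest listed value in TRF2-depleted cortex, among 5 deposited conditions, although the cortex and hippocampus tables were made separately and Cdhr1, at 1.49 against 1.13 FPKM in DKO hippocampus, is close between them. S100a5 aside, 7 of 7 were higher in the TRF2-depleted than in the control cortex, as were 46.7% of the 16148 genes with a value above 0 in either group. The test that the authors ran covered 1 of the 8, S100a5, and marked the other 7 as not tested, so no statement on significance can be made for those. S100a5 was the 1 member at a deposited q of 0.05 or less, a rule that 0.304% of the 9536 tested cortex rows met in the authors' deposited table; since this contrast chose the gene, nothing is read from that count.

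**Figure D1:**
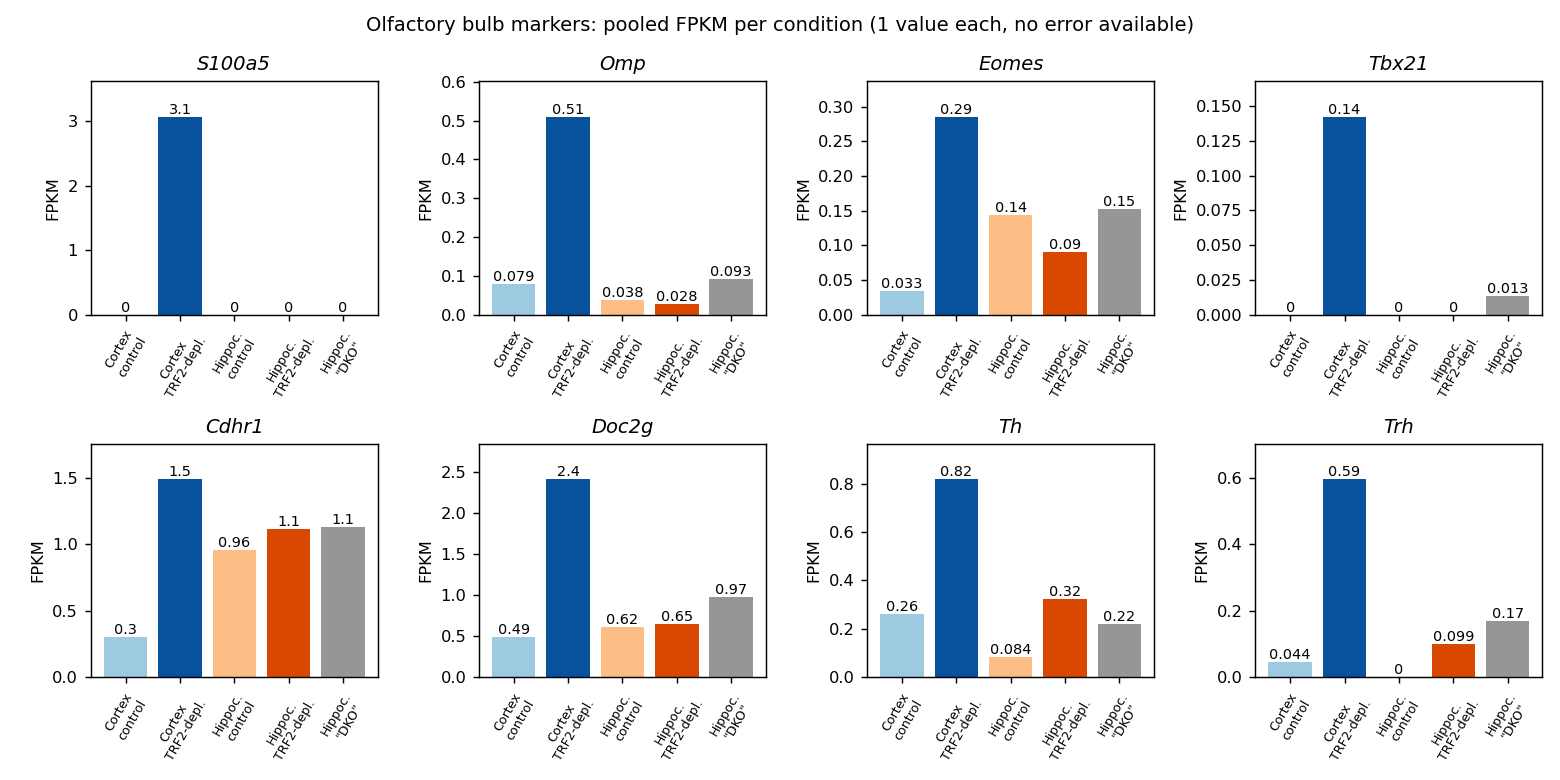
Pooled FPKM of each of the 8 genes (vertical axis, linear, a different scale per gene) in the 5 deposited conditions; each bar is 1 pooled value, so there is no error bar. The TRF2-depleted cortex bar is the tallest for every gene, from 0.143 FPKM for Tbx21 to 3.07 FPKM for S100a5.

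Of the sensory neuron genes, S100a5 (chromosome 3, 90608522 to 90611780, mm10) is listed at 0 in control cortex, 3.07 FPKM in TRF2-depleted cortex, and 0 in the control, TRF2-depleted and DKO hippocampus. It was thus listed above 0 in 1 of 5 conditions, and with a 0 below it no fold is given. Omp (chromosome 7, 98121565 to 98184799) had 0.0791 FPKM in the control and 0.510 FPKM in the TRF2-depleted cortex, a 6.45-fold ratio. In hippocampus it stayed under 0.1 FPKM, at 0.0379 in control, 0.0279 in TRF2-depleted and 0.0926 in DKO. The deposited Omp locus spans Capn5, a calpain protease gene on the same strand in whose bounds Omp lies without sharing exonic bases in GENCODE M21. Capn5 had 6.10 FPKM in the control and 5.14 FPKM in the TRF2-depleted cortex, the opposite direction to Omp.

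Among the mitral and tufted neuron genes, Doc2g (chromosome 19, 4003385 to 4007005) had 0.493 FPKM in the control and 2.41 FPKM in the TRF2-depleted cortex, a 4.89-fold ratio. Cdhr1 (chromosome 14, 37077849 to 37098311) had 0.302 and 1.49 FPKM, a 4.93-fold ratio close to that of Doc2g. These 2 genes have the highest levels of the mitral group and reach 0.1 FPKM in both cortex groups, so their ratios rest least on the lowest values. Eomes (chromosome 9, 118478189 to 118486132) had 0.0333 FPKM in the control and 0.285 FPKM in the TRF2-depleted cortex, an 8.56-fold ratio from a very low base. Tbx21 (chromosome 11, 97098007 to 97115331) is listed at 0 in control cortex and had 0.143 FPKM in TRF2-depleted cortex, the lowest level of the 8 there.

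For Doc2g the annotation sets a limit. In GENCODE M21 it overlaps the predicted gene Gm49405 on the same strand, and 53.6% of the 50-base stretches of its coding transcripts also occur in transcripts of that gene, so reads could be counted to either. The neighbour Nudt8, a nudix hydrolase gene upstream of Doc2g, had 0.924 FPKM in the control and 0.823 FPKM in the TRF2-depleted cortex and did not share the direction of Doc2g. For the other members the share was 2.10% in Eomes and 0 in S100a5, Omp, Tbx21, Cdhr1, Th and Trh. The S100a5 transcripts are the shortest of the set, at 422 and 431 bases, and on so short a transcript few fragments make a given FPKM.

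Th (chromosome 7, 142892776 to 142899966) had 0.262 FPKM in the control and 0.818 FPKM in the TRF2-depleted cortex, a 3.13-fold ratio and the smallest of the 6 that could be computed. Trh (chromosome 6, 92242061 to 92244650) had 0.0444 and 0.595 FPKM, a 13.4-fold ratio and the largest. As differences rather than ratios the order was another one. S100a5 was higher by 3.07 FPKM, Doc2g by 1.92, Cdhr1 by 1.19, Th by 0.557, Trh by 0.551, Omp by 0.431, Eomes by 0.252 and Tbx21 by 0.143 FPKM. Summed over the 8 genes the level was 1.21 FPKM in the control and 9.32 FPKM in the TRF2-depleted cortex. In bulk tissue, more cells of a type and more RNA per cell cannot be told apart.

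To set these ratios beside other genes, 0.1 FPKM was added to each value, which shrinks the ratios of low genes. On that log2 scale the members lay at 4.99 (S100a5), 2.27 (Trh), 2.08 (Doc2g), 1.98 (Cdhr1), 1.77 (Omp), 1.53 (Eomes), 1.34 (Th) and 1.28 (Tbx21). Each was thus at least 2-fold higher, as were 3.22% of the 14560 genes with at least 0.1 FPKM in either cortex group. Low genes vary more: among the 6369 genes whose higher value lay in the range of the members, 0.143 to 3.07 FPKM, 5.43% were at least 2-fold higher and 5.35% at least 2-fold lower. Of the 8 members, 5 reached 0.1 FPKM only in the TRF2-depleted group and so had to be higher there, while Cdhr1, Doc2g and Th reached it in both. The median of the 8 was 1.88, and 1.77 without S100a5, against -0.02 for all 14560 genes. With S100a5 chosen on this contrast and 5 members past the filter only through the TRF2-depleted group, these medians are a description and nothing is read from them.

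The count depends on the pseudocount: with 1 FPKM added, 2 of the 8, S100a5 and Doc2g, were still at least 2-fold higher and the median was 0.57. Of the 14560 genes, 64 had a ratio at least as large as that of Trh, the highest of the 7 added markers, and 270 at least that of Tbx21, the lowest.

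**Figure D2:**
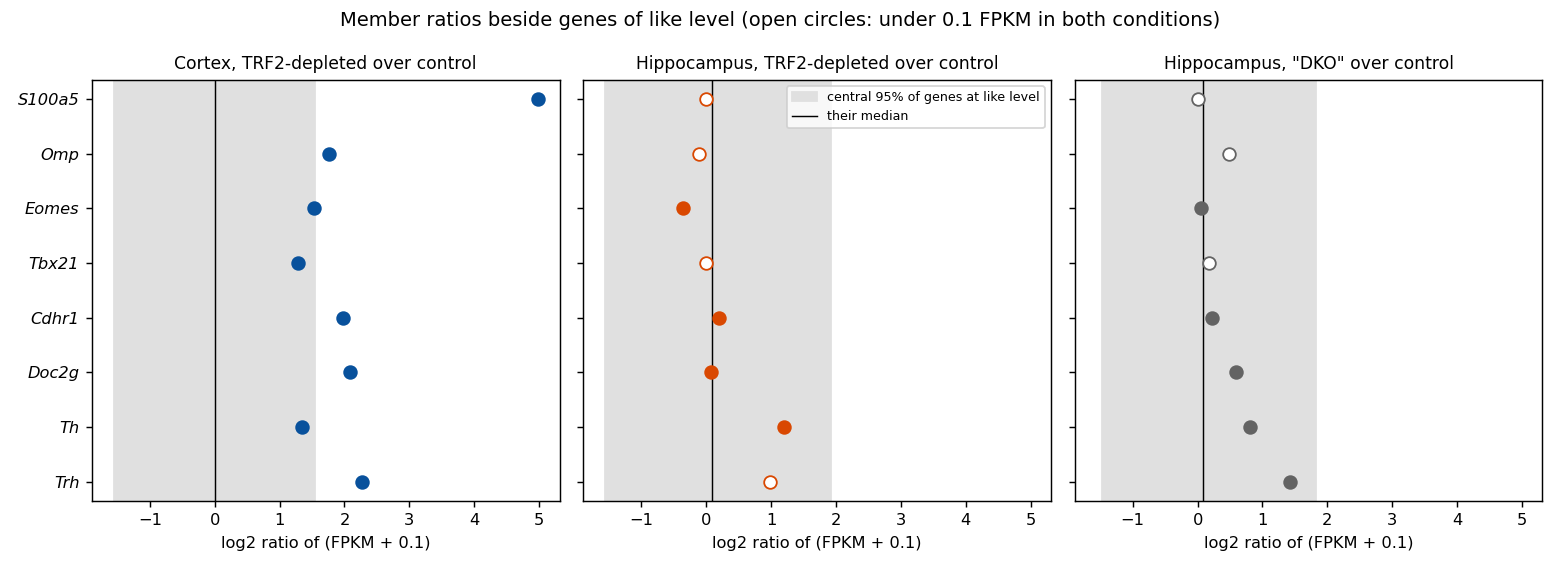
Log2 ratio of (FPKM + 0.1) for each of the 8 genes (horizontal axis) in cortex and in both hippocampus comparisons with control; each point is 1 ratio of pooled values, the grey band holds the central 95% of genes whose level lies in the members' range, and open circles are genes under 0.1 FPKM in both conditions. In cortex the points lie between 1.28 and 4.99, with 5 of 8 beyond the band's upper edge of 1.55, and in hippocampus all 8 lie within it. S100a5 was chosen on its cortex values, which also set the top of the cortex range. Of the 8, 5 reach 0.1 FPKM only in the TRF2-depleted cortex, so nothing is read from the cortex count or its contrast with hippocampus.

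In the hippocampus the same genes showed no common direction between TRF2-depleted and control. The authors' test covered none of the 8 there, while 0.163% of 11054 tested rows passed it in the authors' deposited table. Of the 8, 4 were higher, 2 lower and 2, S100a5 and Tbx21, listed at 0 in both groups, against 52.9% of 16260 genes higher. Cdhr1 had 0.958 FPKM in control and 1.12 in TRF2-depleted hippocampus, and Doc2g 0.615 and 0.654 FPKM, log2 ratios of 0.23 and 0.09 for the 2 most abundant members. Eomes had 0.143 and 0.0902 FPKM, lower in the TRF2-depleted group.

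Th was the 1 member at least 2-fold higher in TRF2-depleted hippocampus, with 0.0841 and 0.322 FPKM. Of these 2 groups it reached 0.1 FPKM only in the TRF2-depleted one and so had to be higher. At least 2-fold higher were also 4.48% of the 14716 genes that reach 0.1 FPKM, among them 410 of the 3713 genes at the members' levels or below. Trh is listed at 0 in control and had 0.0986 FPKM in TRF2-depleted hippocampus. Beside it, 5 of 8 measured hypothalamic peptides were higher there, with a median log2 ratio of 0.59, against 51.9% of all measured genes. In DKO over control 9 of 10 were higher, with a median of 1.01, against 53.1% of genes. Pmch and Gal are listed at 0 in control hippocampus, as are Oxt and Ghrh, which among the hippocampus conditions were above 0 only in DKO. Where these 4 reached 0.1 FPKM they had to be higher, so nothing is read from the counts or medians. The authors' test covered 0 of the peptides in TRF2-depleted over control and 1 in DKO over control, which did not pass. The part of the peptides in the Trh values was not tested. The median log2 ratio of the 4 members that reach 0.1 FPKM was 0.14, against 0.01 for all genes; that of the cortex was computed over other genes, and the difference between tissues was not tested.

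In the DKO condition, Doc2g had 0.975 FPKM, Cdhr1 1.13, Th 0.222, Trh 0.170, Eomes 0.152 and Tbx21 0.0130 FPKM. All of these were above the control hippocampus value, 7 of 8 in all with Omp, and S100a5 is listed at 0 in both, against 53.9% of 16276 genes higher. Trh was the 1 member at least 2-fold higher with 0.1 FPKM added, as were 4.53% of 14695 genes among them 390 of the 3700 at the members' levels or below. Trh and Th reached 0.1 FPKM in DKO but not in control hippocampus and so had to be higher. Both comparisons use the same control samples, so their directions are not independent. None of the 8 was tested by the authors, while 0.181% of 11030 tested rows passed for DKO over control and 0.154% of 11017 for DKO over TRF2-depleted in the authors' deposited table.

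Between DKO and TRF2-depleted hippocampus 6 members were higher, against 51.2% of 16457 genes, and 1, Th, lower, with 0 at least 2-fold higher, as were 3.59% of 14761 genes. Eomes has 2 coding-sequence rows. The row with nearly all of the signal in control and TRF2-depleted hippocampus, at 0.143 and 0.0895 FPKM, had 0.0292 FPKM in DKO, where the other row had 0.122 FPKM. The sum of both was almost the same in control and DKO (0.143 and 0.152 FPKM), so the direction of Eomes there depends on which row is taken.

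Between the tissues, levels are set side by side with the same limit. Cdhr1 was at 0.302 FPKM in control cortex and between 0.958 and 1.13 FPKM in the 3 hippocampus conditions, and Doc2g at 0.493 against 0.615 to 0.975 FPKM. Th and Omp had the reverse order for the controls, 0.262 and 0.0791 FPKM in cortex against 0.0841 and 0.0379 FPKM in hippocampus.

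Other olfactory genes were examined as lists. For comparison, 46.3% of the 14560 genes with at least 0.1 FPKM in either cortex group were higher in the TRF2-depleted group, and 3.22% at least 2-fold higher. Of 17 further genes of olfactory sensory neurons, 10 reached 0.1 FPKM in cortex, 7 were higher and 3 lower, with a median log2 ratio of 0.23 and 1 at least 2-fold higher, the chloride channel Ano2 (0.0153 and 0.175 FPKM). Ano2 reached 0.1 FPKM in cortex only in the TRF2-depleted group and so had to be higher. It was also higher in TRF2-depleted than in control hippocampus, at 0.629 against 0.251 FPKM. None of the 5 genes of this list that the authors tested in cortex passed. Of the transduction genes, the channel subunit Cnga2 is listed at 0 in both cortex groups, as is the G protein subunit Gng13. The other channel subunits Cnga4 (0.147 and 0.210 FPKM) and Cngb1 (listed at 0, and 0.0233 FPKM) and the stomatin family gene Stoml3 (0.101 and 0.172 FPKM) had low values that were higher in the TRF2-depleted group. Other low genes of the list were lower there: Gng8 (0.0942 FPKM, and listed at 0), Rtp1 (0.0675 and 0.0217 FPKM) and Umodl1 (0.0254 and 0.0115 FPKM). Adcy3, at 4.55 and 3.78 FPKM, was lower as well. The G protein Gnal, which neurons of the striatum also use, had 16.2 and 17.0 FPKM.

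Odorant receptors are the receptor family of the sensory neurons. Of 1107 genes named Olfr, 20 were above 0 in control and 23 in TRF2-depleted cortex, with summed levels of 8.37 and 10.7 FPKM. Most of that sum was 1 gene, Olfr613, at 5.52 and 7.37 FPKM, which was also at 5.90 FPKM in control hippocampus. Without it the sums were 2.85 and 3.30 FPKM in cortex. The 22 receptors that reached 0.1 FPKM were 14 higher and 8 lower, with 8 at least 2-fold higher, 6 at least 2-fold lower and a median log2 ratio of 0.33. The authors tested 1 of them, which did not pass.

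For mitral and tufted neurons, 11 of 12 listed genes are in the table and 7 reached 0.1 FPKM in cortex, 4 higher and 3 lower, with a median of 0.08 and 0 at least 2-fold higher. None of the 6 tested genes passed, although the most abundant, Olfm1 (234 and 201 FPKM) and the peptide Cck (150 and 147 FPKM), are expressed widely in cortex itself. The transcription factors Lhx1 and Lhx5 stayed under 0.1 FPKM in both groups.

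Of the genes of bulb granule and periglomerular neurons, all 16 reached 0.1 FPKM. In cortex 13 were higher and 3 lower, against 46.3% of all measured genes higher, and the median was 0.22. At least 2-fold higher were 2, the zinc finger factor Sp8 (0.222 and 0.869 FPKM) and the calcium sensor Scgn (listed at 0, and 0.342 FPKM), neither tested by the authors. The 8 tested members did not pass, among them Calb2, calretinin, at 2.55 and 3.75 FPKM and Synpr at 20.3 and 25.1 FPKM. In TRF2-depleted hippocampus 12 of 16 were higher than in control, against 51.9% of all measured genes, with a median of 0.19, close to the cortex median. Scgn (0.172 and 0.479 FPKM) and Sp8 (0.337 and 0.601 FPKM) were among those higher there. In cortex, Scgn reached 0.1 FPKM only in the TRF2-depleted group and so had to be higher.

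**Figure D3:**
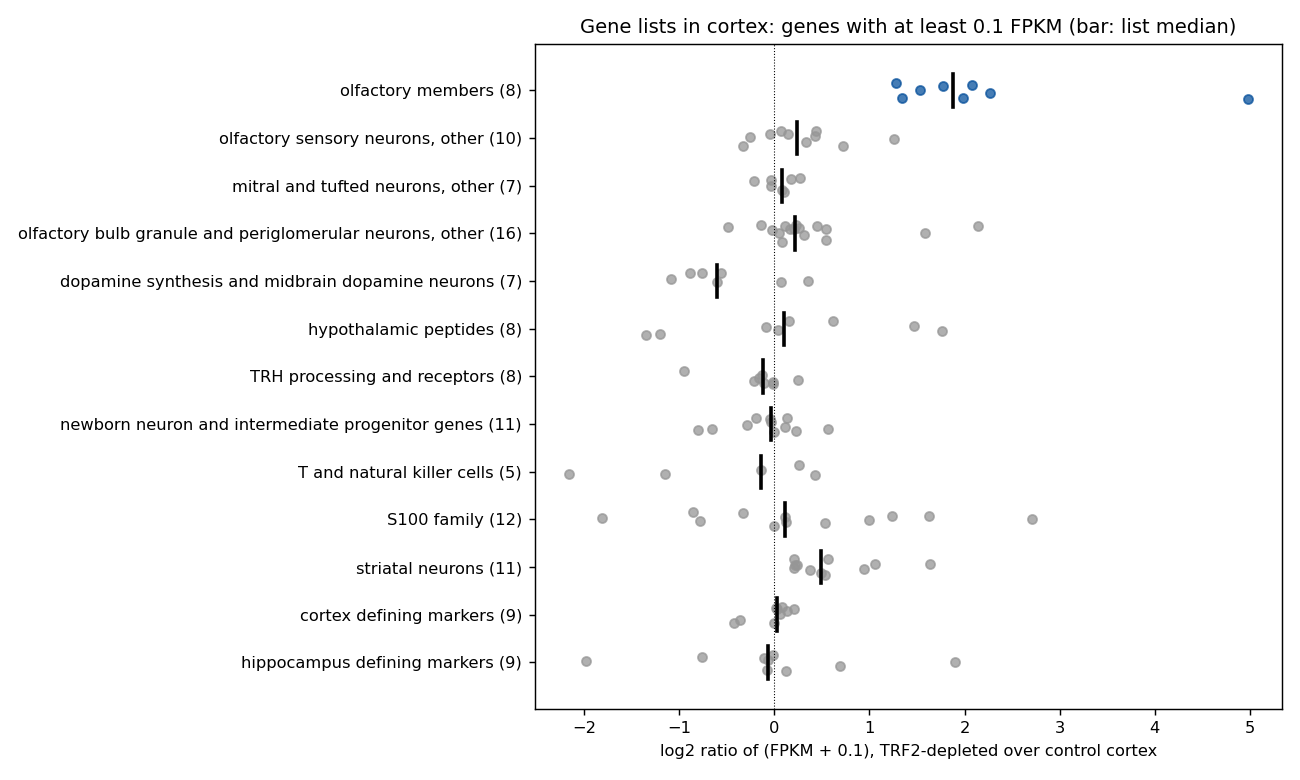
Log2 ratio of (FPKM + 0.1) in cortex, TRF2-depleted over control (horizontal axis), for each gene with at least 0.1 FPKM (points, spread vertically for legibility), by list with the number of genes in brackets; bars are list medians. The 8 olfactory markers lie at 1.28 or above with a median of 1.88, while the medians of the other lists lie between -0.60 and 0.49.

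Lists of other sources of the same genes were set beside the members. Genes of dopamine synthesis and midbrain dopamine neurons did not share the direction of Th: 2 of 7 were higher and 5 lower, with a median of -0.60. The decarboxylase Ddc had 1.58 and 0.890 FPKM while the dopamine transporter Slc6a3 was at 0 and 0.0411 FPKM. Because periglomerular neurons of the bulb also make dopamine, this list cannot separate midbrain from bulb dopamine neurons. Hypothalamic peptides, beside Trh, were 5 higher and 3 lower with a median of 0.10. At least 2-fold higher were Hcrt (0 and 0.177 FPKM) and Agrp (0 and 0.240 FPKM). At least 2-fold lower were Pmch (0.131 and 0 FPKM) and Gal (0.156 and 0 FPKM). Each of these reached 0.1 FPKM in 1 group only, which set its direction. Oxt and Avp are listed at 0 in both cortex groups. Enzymes and receptors of Trh signalling had 1 of 8 higher and a median of -0.12.

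Genes of newborn neurons and progenitors, beside Eomes, had 5 of 11 higher and a median of -0.04, with Neurod1 at 3.24 and 3.15 FPKM. T and natural killer cell genes, beside Eomes and Tbx21, had summed levels of 1.36 and 1.11 FPKM, and the CD3 genes Cd3e, Cd3d and Cd3g are listed at 0 in both groups.

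Striatal neuron genes were the list with the highest median apart from the members, 0.49, with summed levels of 64.6 and 85.2 FPKM and 0 of the 8 tested genes called. All 11 of 11 measured genes were higher, against 46.3% of the 14560 genes with at least 0.1 FPKM in either cortex group. Ppp1r1b, the phosphatase inhibitor DARPP-32, had 26.8 and 30.9 FPKM, the smallest ratio of the 11. At least 2-fold higher were 2, as were 3.22% of the 14560 genes. They were the substance P precursor Tac1 (1.74 and 5.62 FPKM) and the transcription factor Isl1 (0.0599 and 0.233 FPKM). Isl1 reached 0.1 FPKM only in the TRF2-depleted group and so had to be higher. The part of striatal genes in the members' values was not tested, and the makeup of the dissected tissue and the genotype cannot be told apart from pooled values.

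The tissue labels were checked on defining markers. Of 9 cortex markers, 8 were higher in control cortex than in control hippocampus, Lamp5 at 56.1 against 6.21 FPKM, and 1, Bcl11b, was lower, at 4.24 against 7.32 FPKM. In TRF2-depleted cortex Lamp5 had 56.8 FPKM and Bcl11b 3.29 FPKM. Of the hippocampus markers, the CA1 gene Fibcd1 had 0.931 and 0.920 FPKM in cortex against 15.5 FPKM in control hippocampus, and the dentate genes Dsp (0.0372 and 0.0159 FPKM) and Lct (0.128 and 0.147 FPKM) were as low in TRF2-depleted as in control cortex. In hippocampus, 3 of the 10 tested markers were called lower in TRF2-depleted than in control, against 0.163% of 11054 tested rows called in either direction. They were Lct (4.66 and 2.26 FPKM), C1ql2 (19.2 and 11.4 FPKM) and Dsp (3.27 and 1.16 FPKM). C1ql2 and Dsp were also called lower in DKO over control, at 12.7 and 1.38 FPKM in DKO, against 0.181% of 11030 rows. Terf2, the targeted gene, had 3.59 and 0.202 FPKM in control and TRF2-depleted cortex, and 2.01, 0.883 and 0.753 FPKM in control, TRF2-depleted and DKO hippocampus.

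S100a5 lies in a cluster of S100 genes on chromosome 3, and its neighbours did not share its size of difference. S100a4, a calcium-binding protein known from motile and inflammatory cells, lies just upstream and had 1.14 and 0.618 FPKM in control and TRF2-depleted cortex. S100a6, just downstream, had 7.96 and 7.94 FPKM, and S100a3 had 0.145 and 0.476 FPKM. No other gene's exons overlap those of S100a5 in GENCODE M21.

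In the S100 family as a whole, 12 of 16 other members reached 0.1 FPKM in cortex, 7 higher and 5 lower, with a median of 0.11. At least 2-fold higher were S100a3, S100a7a (0.131 and 0.611 FPKM) and S100a8, a neutrophil protein (listed at 0, and 0.555 FPKM). At least 2-fold lower was 1, S100g (0.251 FPKM, and listed at 0). S100a8 reached 0.1 FPKM only in the TRF2-depleted group and S100g only in the control, which set their directions. The abundant glial S100b had 28.8 and 31.4 FPKM and S100a1 30.6 and 33.0 FPKM. None of the 7 tested family members passed.

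A listed 0 is not proof of absence in these tables. Tuba4a, an alpha-tubulin, is listed at 0 in control cortex, 6.21 FPKM in TRF2-depleted cortex and 98.4 FPKM in control hippocampus, and Penk, the enkephalin precursor known from striatal neurons, is at or near 0 in every condition. In cortex 137 genes are at 0 in control and at 0.1 FPKM or more in the TRF2-depleted group, and 138 genes are the reverse. Of the 9536 tested rows 2 were at 0 in control, those of S100a5 and Tuba4a, and 1 was at 0 in the TRF2-depleted group.

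The genes whose profile over the 5 conditions came nearest to that of S100a5, by Euclidean distance of log2(FPKM + 0.1), were Fez1 (0.91), Vsig2 (1.79), Bglap3 (2.09), Pigg (2.30) and Unc79 (2.34). Fez1, a kinesin adaptor known to be widely expressed in brain, had 0.00259 and 1.59 FPKM in control and TRF2-depleted cortex and at most 0.000273 FPKM in hippocampus. Among the other markers the nearest were Omp (2.76) and Trh (2.85), and the farthest was Cdhr1 (6.54). Besides Tuba4a and S100a5, the genes at 0 in control cortex with the highest TRF2-depleted values were Bglap3 (0.951 FPKM), the atrial myosin light chain Myl4 (0.916 FPKM), Tmem200b (0.865 FPKM) and Rasl10b (0.581 FPKM), none of them an olfactory marker of the lists.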

How the data were processed

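RNA was sequenced from the cortex and hippocampus samples described above. Per the submitters' processing notes, CASAVA 1.8, TopHat2, Cufflinks and Cuffdiff were used with mm10. Neither settings nor annotation nor strand use in counting is given in the sources used here. Per the file headers, the deposited values are FPKM, 1 per condition and coding-sequence row, with replicates pooled by the authors, beside the authors' deposited p-value and q-value for each row they tested. Read depth is therefore unknown, and nothing ties samples to animals.

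FPKM was summed over the rows of each gene. Ratios use no pseudocount for single members, and 0.1 FPKM is added for lists and backgrounds, over genes with at least 0.1 FPKM in either group. Called rows are those with a deposited q of at most 0.05. No test between samples was possible. Alternatives covered the q threshold, the adjustment, the pseudocount, the minimum FPKM, centring and the choice of row. The members and the 13 other lists were chosen with earlier results of these data known. The text names the members, the 3 most abundant genes of each list or some of them, called list members and the 5 nearest profiles; other named genes were chosen after their values were seen. Overlaps and 50-base stretches come from GENCODE M21. The adjustment, ratio and distance calculations were checked on simulated data. Calculations ran in Python 3.11.15 (pandas 2.3.3, numpy 2.4.6), and figures in matplotlib 3.10.9.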

Additional observations from a re-analysis of the deposited data

How the results depend on the processing

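The counts of called members stayed at 1 in cortex and 0 in the hippocampus comparisons at a deposited q of 0.01 or 0.10, at an unadjusted p of 0.05, with at least 1 FPKM, and with an adjustment over the tested rows of each comparison, where S100a5 had an adjusted p of 0.0341 by the Benjamini-Hochberg method. With a pseudocount of 1 FPKM the median of the members in cortex was 0.57 in place of 1.88, and the members at least 2-fold higher, counted after seeing the data, were 2 in place of 8 in cortex and 0 in place of 1 in TRF2-depleted and in DKO hippocampus over control. With a minimum of 0.5 FPKM the latter 2 counts were also 0. The log2 ratio of Eomes in DKO over control was -2.29 by its most abundant row and 0.08 summed. Of 88 alternatives of single member ratios, 21 moved by over 1.5 times and 1 changed sign. No paired analysis was possible because the replicates were pooled by the authors, which also prevents leaving out samples. Unknown depth limits every value under about 0.1 FPKM.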
